A study of Mus musculus with 35 samples.

Results

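Ion channels of brown fat were followed in interscapular brown adipose tissue (iBAT) of mice during cold exposure. The 8 genes are Ano1, Ano6, Lrrc8a, Kcnk3, Piezo1, Trpv2, Trpv4 and Trpm7, out of 55421 genes in the count table, of which 32079 had at least 1 read. They were chosen by name as channel genes with Ano1 as the starting point, because Ano1 is among the largest falls after 6 hours of cold. Whole-tissue RNA from 35 male C57BL/6J mice aged 9 to 10 weeks was sequenced, with 5 mice at room temperature and 5 mice each after 6 hours and 1, 2, 3, 4 and 5 days at 6 °C. No genetic change or drug was used. The colony was kept at 24 °C, where the controls remained, and the cold mice were housed singly in static cages without nesting material, so temperature and housing cannot be told apart. From each mouse 1 iBAT pad was used, and interscapular white fat was trimmed away.

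Channels let ions cross membranes down their gradients, and brown adipocytes use them to set membrane potential, volume and calcium signals while noradrenaline drives lipolysis and heat production. Ano1 encodes a calcium-activated chloride channel (TMEM16A) that is well known from smooth muscle, interstitial cells of Cajal and secretory epithelia and that also carries chloride current in brown adipocytes. Kcnk3 encodes the potassium leak channel TASK-1, which holds the membrane near its resting potential and is known to restrain adrenergic signaling in brown adipocytes. Lrrc8a encodes the obligatory subunit of the volume-regulated anion channel, Piezo1 opens on membrane stretch, and Trpv2, Trpv4 and Trpm7 are cation channels of the TRP family.

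Promoter sequences are shown for the member with the largest log2 fold change in the cold (Ano1), a gene that rose (Piezo1) and a gene that was not called at any duration (Lrrc8a), so that their sequences can be read beside the values. They come from RefSeq (GRCm38.p6), run from 250 bases before to 50 bases after an annotated transcription start, and are written 5′ to 3′ on the gene's strand. Capitals mark the motifs searched on both strands: the cAMP response element CRE TGACGTCA, its core TGACG, the NR4A element AAAGGTCA and the E-box CACGTG. Every CRE also holds the core on both strands.
Ano1, chr7:144738524-144738823, minus strand: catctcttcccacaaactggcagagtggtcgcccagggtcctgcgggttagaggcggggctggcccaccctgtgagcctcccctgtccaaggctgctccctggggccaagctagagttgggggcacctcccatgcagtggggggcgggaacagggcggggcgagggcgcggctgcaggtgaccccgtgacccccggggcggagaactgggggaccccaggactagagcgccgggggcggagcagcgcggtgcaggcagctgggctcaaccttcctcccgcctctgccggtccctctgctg
Piezo1, chr8:122551280-122551579, minus strand: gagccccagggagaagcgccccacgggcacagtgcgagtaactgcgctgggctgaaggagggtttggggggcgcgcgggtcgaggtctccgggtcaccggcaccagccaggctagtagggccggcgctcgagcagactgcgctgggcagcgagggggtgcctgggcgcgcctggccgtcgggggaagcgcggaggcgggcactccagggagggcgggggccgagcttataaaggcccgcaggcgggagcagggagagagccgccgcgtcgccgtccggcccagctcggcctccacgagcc
Lrrc8a, chr2:30237519-30237818, plus strand: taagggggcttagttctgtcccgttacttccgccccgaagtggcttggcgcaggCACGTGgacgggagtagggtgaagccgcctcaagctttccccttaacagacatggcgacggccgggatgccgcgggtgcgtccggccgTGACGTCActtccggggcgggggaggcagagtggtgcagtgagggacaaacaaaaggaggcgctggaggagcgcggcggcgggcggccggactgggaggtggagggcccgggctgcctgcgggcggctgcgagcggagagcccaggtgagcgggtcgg
The Ano1 and Piezo1 windows held none of these letters. The Lrrc8a window held a CRE whose first base lay at -108 and an E-box whose first base lay at -196, counted in bases from the start. Over 32851 promoters of the same length, 1.8% held the CRE, 20.8% the core, 1.5% the NR4A element and 7.2% the E-box. Among the other members with an entry, Trpm7 held 2 E-boxes and 1 core, Ano6 held 1 core, and the windows of Trpv2 and Trpv4 held none. Kcnk3 had no entry. The Ano1 start used here lies inside the longer gene model of the GENCODE M21 annotation (GRCm38), chr7:144588549-144751974 on the minus strand.

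The libraries held 3846016 to 6047247 counts. Values are CPM (a gene's counts scaled to a common library size) after normalization by the trimmed mean of M-values (TMM), and 1 read was worth 0.151 to 0.285 CPM on that scale across libraries. Mitochondrial genes took 33.6% to 46.2% of a library, with overlapping ranges of 38.4% to 41.3% at room temperature and 33.6% to 44.6% after 5 days. Reads come from the 3′ ends of transcripts. The 10 brown adipocyte markers, Ucp1 and Cidea among them, had counts in every group and summed to 14717 to 18270 CPM in the control mice and 18733 to 23595 CPM after 5 days. Within this sum the Ucp1 mean was 1897.5 CPM in the controls and 7610.8 CPM after 5 days, while that of Adipoq was 891 and 417 CPM. A gene was called when its Benjamini-Hochberg adjusted p in edgeR's quasi-likelihood test was under 0.05, adjusted over all genes tested. Every comparison with room temperature uses the same 5 control mice.

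**Figure D1:**
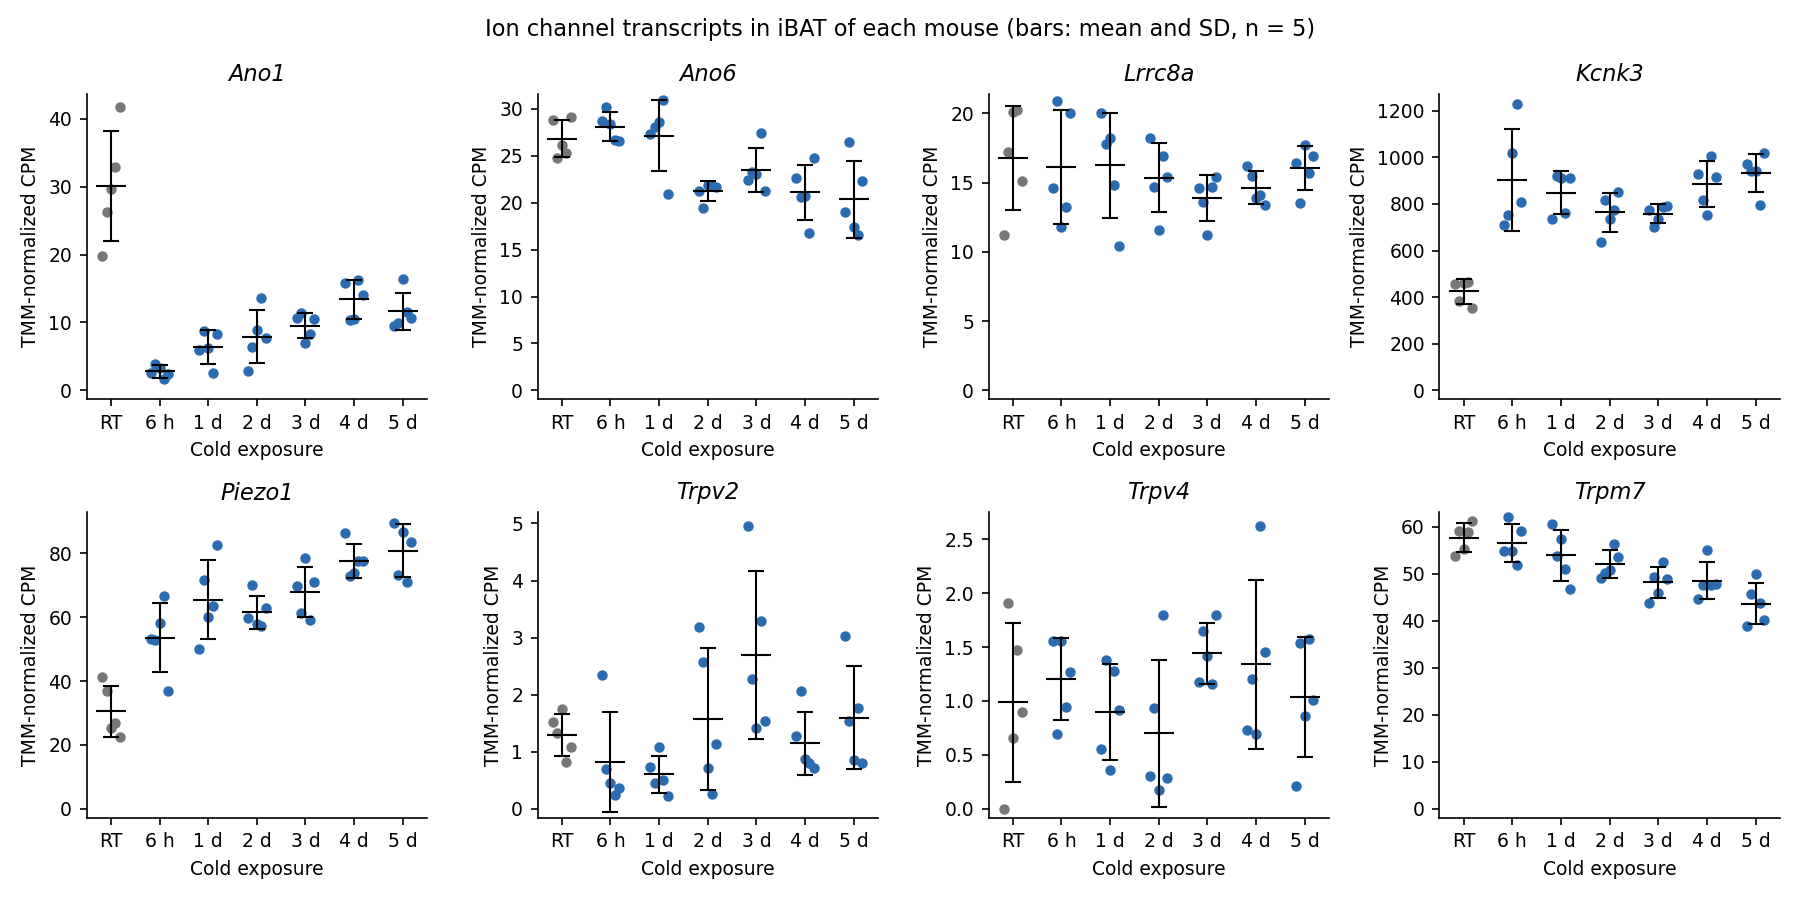
TMM-normalized CPM (vertical axes, from 0, a separate scale for each gene) of the 8 channel genes in every mouse at room temperature (RT, gray) and after each duration of cold (blue). Horizontal bars are means and whiskers 1 SD of 5 mice. Ano1 was lower than in every control in all cold mice, Kcnk3 was higher in all cold mice, and Trpv2 and Trpv4 stayed below 5 CPM.

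Ano1 was much lower in the cold at every duration and was lowest after 6 hours. At room temperature the 5 mice had Ano1 levels of 19.8, 26.3, 29.7, 32.9 and 41.7 CPM. After 6 hours they had 2.61, 3.95, 3.35, 1.65 and 2.37 CPM, from 7 to 17 reads per library. The highest of these was well under the lowest control, and the mean of 2.79 ± 0.889 CPM (SD, n = 5) was 9.26% of the control mean of 30.1 ± 8.1 CPM. The log2 fold change was -3.46 (SE 0.23), given without a test because Ano1 was selected on this difference. Fewer cells that express Ano1 and less Ano1 RNA per cell cannot be told apart in whole tissue.

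At every later duration the Ano1 mean was above that of the 6-hour mice and below that of the controls. After 1 day the mice had 5.94, 8.77, 6.29, 2.55 and 8.29 CPM, and after 2 days 2.87, 6.32, 8.96, 13.6 and 7.7 CPM. After 3 days they had 10.6, 11.4, 6.94, 8.31 and 10.5 CPM. After 4 days they had 15.8, 10.3, 10.5, 16.3 and 14.1 CPM, and after 5 days 9.51, 9.93, 16.4, 11.6 and 10.7 CPM. None of these mice reached the lowest control, and the group means were 21.2%, 26.2%, 31.7%, 44.6% and 38.6% of the control mean. The log2 fold changes against room temperature were -2.25, -1.99, -1.68, -1.20 and -1.40 (SE 0.19 to 0.29), again without a test because the controls are those on which the gene was chosen. In the order of means, the ranges of neighboring cold groups overlapped throughout, and room temperature stood apart from all of them.

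The days from 1 to 5 used neither the controls nor the 6-hour mice, so Ano1 could be tested among them. Ano1 differed among the 5 durations in a quasi-likelihood F-test over 25 mice (adjusted p = 0.0348), where 17.4% of 11675 genes were called. All 5 mice after 5 days were above all 5 mice after 1 day, with a log2 fold change of 0.85 (SE 0.29, adjusted p = 0.0355, edgeR). Of all genes, 10.1% were called higher and 8.78% lower after 5 days than after 1 day. The share of genes in which these groups did not overlap was not determined. On log2 CPM, a two-sided exact permutation test gave p = 0.00794, the smallest that 5 mice against 5 allow. The edgeR call after 5 days was lost when any of mice 1, 3 or 4 of the 1-day group or mice 3 or 4 of the 5-day group was left out (highest adjusted p = 0.105), and the F-test was lost without mice 1, 3 or 4 of the 1-day group or mice 1, 4 or 5 of the 4-day group (highest adjusted p = 0.0727). A fit with the replicate number as a block gave adjusted p = 0.0532 for 5 days against 1 day and 0.0556 for the F-test.

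Markers of other cells that express Ano1 were followed beside it. The 12 smooth muscle and pericyte markers (Acta2, Myh11 and Rgs5 among them) summed to 404 to 423 CPM in the control mice and to 356 to 426 CPM after 6 hours, where Ano1 was at its lowest. Most of this sum was Rgs5, with a mean of 302 CPM in the controls and 233 CPM after 6 hours, while the mean of Acta2 was 17.7 and then 30.7 CPM and that of Cnn1 1.13 and then 3.92 CPM. Of the 10 markers tested after 1 day, 4 were called higher and 1 lower, beside 18.9% and 17.8% of all genes. The 12 markers summed to 311 to 360.4 CPM after 1 day and to 266 to 321 CPM after 5 days, with Ano1 higher after 5 days than after 1 day. Of these 12 markers, 7 were called lower and 1 higher after 5 days than after 1 day, beside 8.78% and 10.1% of all genes. The 10 luminal epithelial markers, such as Epcam and Krt8, summed to 1.51 CPM at most in any mouse, and 4 of them were at 0 in all controls. The 8 endothelial markers summed to 310 to 374 CPM in the controls, 515 to 619 CPM after 6 hours, 616 to 716 CPM after 1 day and 287 to 444 CPM after 5 days. Between the controls and 6 hours the mean of Kdr went from 130.2 to 264 CPM and that of Pecam1 from 48.4 to 105 CPM. That of Cdh5 was 56.5 and then 59.0 CPM, and that of Tie1 16.4 and then 10.9 CPM. The part of these cells in the Ano1 values was not tested.

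**Figure D2:**
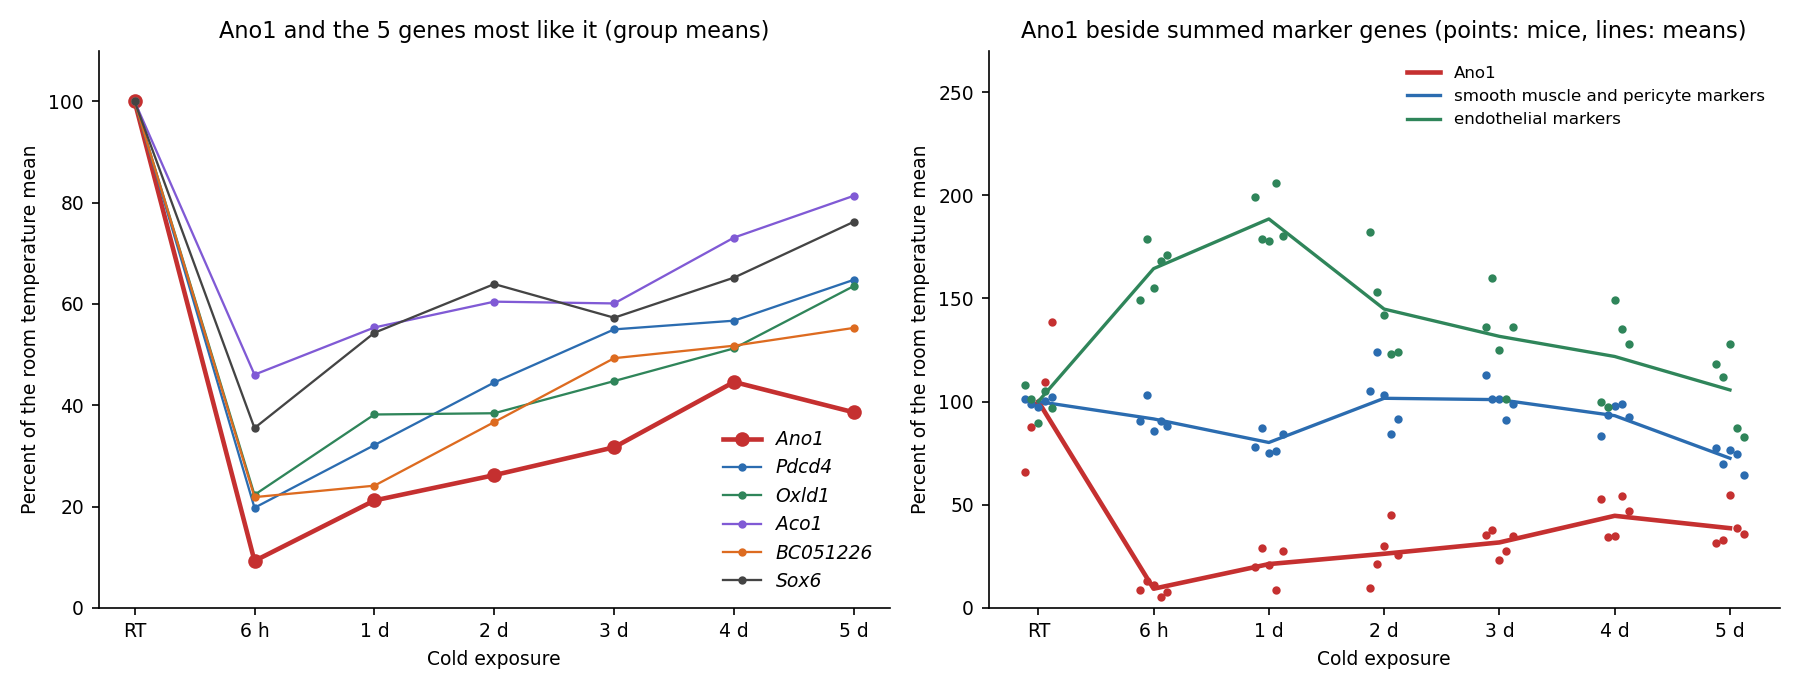
Left, group means of Ano1 and the 5 genes most like it across 35 mice, as percent of each gene's room temperature mean, by duration of cold. Right, Ano1 and the sums of 12 smooth muscle and pericyte markers and 8 endothelial markers in each mouse (points) with group means (lines), on the same kind of scale. Ano1 was at 9.26% after 6 hours, and the smooth muscle and pericyte sum, mostly Rgs5, was 356 to 426 CPM there. The like genes were lowest after 6 hours too, which follows in part from ranking them over all mice.

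The genes whose log2 CPM was most like that of Ano1 over the 35 mice were, of 8885 genes with a symbol and a mean of at least 20 counts, Pdcd4 (Pearson's r = 0.92), Oxld1 (0.883), Aco1 (0.881), BC051226 (0.865) and Sox6 (0.863). Mice of a group share their exposure, so this is a ranking and not a test. Pdcd4, an inhibitor of translation initiation, went from a mean of 58.2 CPM at room temperature to 11.5 CPM after 6 hours and 37.7 CPM after 5 days. Aco1, the cytosolic aconitase that also acts as an iron sensor, went from 56.9 to 26.2 and then 46.3 CPM. Sox6, a transcription factor known from muscle development, went from 70.7 to 25.1 and then 53.9 CPM. With each duration's mean removed, r with Ano1 was 0.61 for Pdcd4, 0.636 for Aco1 and 0.475 for Sox6, and none of the 5 was among the 5 most like genes on that scale.

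Kcnk3 was higher in the cold from 6 hours on, with group means at 179% to 220% of the control mean. The control mice had 458, 385, 461, 467 and 352 CPM. After 6 hours they had 711, 751, 1019.5, 1229.4 and 806 CPM, all above every control, with a log2 fold change of 1.06 (SE 0.14) given as a description because this contrast was used in choosing the genes. Over all genes, 15.8% were higher in all 5 mice than in every control after 6 hours and 12.7% were lower in all of them. These shares were not determined for the later durations. Separation of any member from the controls there is therefore given without such a background.

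After 1 day the mice had Kcnk3 levels of 736, 921, 913, 760 and 911 CPM, and the rise passed the test (log2 fold change 0.98, SE 0.11, adjusted p = 3.9e-06). After 5 days they had 972, 939.9, 939, 796 and 1016.8 CPM, again without overlap with the controls (1.11, SE 0.11, adjusted p = 3.85e-07). The values lay between 638 and 853 CPM after 2 days, 699.8 and 792 CPM after 3 days and 754 and 1005.2 CPM after 4 days. Kcnk3 was called higher at these durations too, with log2 fold changes of 0.83, 0.83 and 1.03. Among days 1 to 5 it was not called (adjusted p = 0.106), and 5 days against 1 day gave 0.13 (SE 0.10, adjusted p = 0.397). Kcnk3 (chr5:30588170-30625271, plus strand, GRCm38) overlaps Gm9899 on the opposite strand, which took 4660 counts in all against 133722 for Kcnk3.

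The genes most like Kcnk3 over the 35 mice were Usp8 (r = 0.921), Slc25a17 (0.919), Gpam (0.919), Ndufaf4 (0.916) and Slc3a2 (0.913). Gpam, which starts triglyceride synthesis at the mitochondrial membrane, went from 211 CPM in the controls to 464 CPM after 6 hours and 439 CPM after 5 days. Slc3a2, the heavy chain of amino acid exchangers, went from 35.2 to 216 and then 183 CPM. With each duration's mean removed, r was 0.607 for Gpam and 0.478 for Slc3a2, and none of the 5 was among the 5 most like genes.

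Piezo1, the stretch-activated cation channel, also rose and had its highest mean after 5 days. The control mice had 41.2, 36.8, 25.3, 26.9 and 22.5 CPM. After 1 day they had 49.9, 71.5, 60.05, 63.5 and 82.4 CPM, and after 5 days 89.5, 73.0, 86.6, 70.9 and 83.4 CPM. All mice of both groups were above every control, with log2 fold changes of 1.08 (SE 0.17, adjusted p = 0.000104) and 1.38 (SE 0.15, adjusted p = 1.33e-06). After 2, 3 and 4 days the changes were 0.99, 1.14 and 1.32, all called higher and without overlap with the controls. The share of all genes without such overlap was not determined at these durations.

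After 6 hours Piezo1 values were 53.2, 52.7, 58.1, 66.6 and 37.0 CPM, a description in which the last mouse lay within the control range. Among days 1 to 5 Piezo1 was called at an adjusted p of 0.0471, which 19 of 25 fits without a mouse did not pass. After 5 days against 1 day the log2 fold change was 0.30 (SE 0.11, adjusted p = 0.0646, not called). Piezo1 (chr8:122481698-122551329, minus strand) overlaps Ctu2 on the opposite strand, which took 593 counts against 10643.

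Trpm7, a channel fused to a kinase that carries magnesium and zinc, fell by a smaller amount. The control mice had 53.8, 59.1, 55.2, 58.9 and 61.3 CPM. After 5 days they had 38.9, 45.7, 49.96, 43.7 and 40.2 CPM, all below every control (log2 fold change -0.43, SE 0.10, adjusted p = 0.00351). How many of all genes lay below every control at this duration was not determined. The fall was also called after 3 days (-0.27, adjusted p = 0.0361) and 4 days (-0.27, adjusted p = 0.0309), but not after 1 day (-0.11, adjusted p = 0.411) or 2 days (-0.17, adjusted p = 0.215).

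The calls of Trpm7 after 3 and 4 days were each lost in 7 of 10 fits without a mouse, and they had adjusted p-values of 0.0707 and 0.0647 with the replicate block. After 5 days Trpm7 was also lower than after 1 day, where the mice had 60.7, 53.8, 57.4, 51.0 and 46.7 CPM (-0.31, SE 0.10, adjusted p = 0.0208). That call was lost without mouse 1 of the 1-day group or without mouse 1 or 5 of the 5-day group (highest adjusted p = 0.0703). The F-test among the 5 durations did not call it (adjusted p = 0.11).

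Ano6, a relative of Ano1 that works mainly as a calcium-activated lipid scramblase, was called lower after 2, 4 and 5 days. The control mice had 28.8, 24.8, 26.2, 25.3 and 29.1 CPM. After 2 days they had 21.3, 19.4, 21.9, 21.8 and 21.7 CPM, all below every control (log2 fold change -0.35, SE 0.11, adjusted p = 0.0206). As for Trpm7, the share of all genes below every control was not determined. After 5 days they had 19.0, 26.5, 17.4, 16.6 and 22.3 CPM, and 4 of 5 were below every control (-0.42, SE 0.14, adjusted p = 0.0192). The change after 4 days also passed the test (-0.37, adjusted p = 0.0222), and that after 3 days did not (-0.20, adjusted p = 0.191).

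After 1 day Ano6 had 20.9 to 30.9 CPM and showed no call. After 5 days it was lower than after 1 day (-0.42, SE 0.13, adjusted p = 0.0238). The calls of Ano6 were lost without control mouse 5 in all 3 comparisons with room temperature (adjusted p = 0.0503 after 2 days, 0.058 after 4 days and 0.0502 after 5 days). They were also lost without mouse 2 of the 2-day group, mouse 2 or 4 of the 4-day group, or mouse 3 or 4 of the 5-day group (adjusted p up to 0.0693). The call after 5 days against 1 day was lost without mouse 4 of the 1-day group or mouse 3 or 4 of the 5-day group (up to 0.0811). Ano6 overlaps the antisense gene A130051J06Rik, which took 91 counts against 4122.

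Lrrc8a was not called at any duration. Its values were 11.2, 17.2, 20.1, 20.2 and 15.1 CPM in the controls and 16.4, 13.5, 17.7, 15.7 and 16.9 CPM after 5 days. The groups overlapped throughout, and the log2 fold changes after 1 to 5 days lay between -0.28 and -0.06 with standard errors of 0.16 to 0.19. The change after 5 days was -0.09 (SE 0.16, adjusted p = 0.698).

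Trpv2 and Trpv4 were near the limit of this depth. Trpv2, a calcium-permeable channel with a known role in brown adipocyte heat production, had 1 to 21 reads per library and did not pass the filter on low counts in any comparison with room temperature. Its controls had 1.53, 1.33, 1.75, 0.815 and 1.08 CPM and the mice after 1 day 0.742, 0.461, 1.08, 0.51 and 0.23 CPM, with a difference in log2 CPM of -0.78 (exact permutation p = 0.0238, not adjusted). After 3 days the mice had 4.95, 2.27, 1.42, 3.29 and 1.54 CPM, with a difference of 0.77 (exact permutation p = 0.0476, not adjusted). The 10 macrophage and dendritic cell markers summed to 109.8 to 236 CPM in the controls, 105 to 148 CPM after 1 day and 175 to 363 CPM after 3 days. The mice with the most Trpv2 after 3 days (mice 1 and 4) had the highest sums of their group, 363 and 257 CPM. After 2 days mice 1 and 2 had the highest sums of their group, 209 and 159 CPM, and the most Trpv2, 3.18 and 2.57 CPM. After 4 days mice 1, 2 and 3 had sums of 271, 324 and 318 CPM and Trpv2 of 1.27, 2.06 and 0.872 CPM. Mice 4 and 5 of that group had sums of 125 and 130 CPM and Trpv2 of 0.807 and 0.723 CPM. The order differed in other groups. Control mouse 5 had the highest sum of the controls, 236 CPM, and Trpv2 of 1.08 CPM. After 5 days mouse 5 had the highest sum of its group, 252 CPM, and the lowest Trpv2, 0.804 CPM. The part of these cells in the Trpv2 values was not tested. At the other durations p was 0.5 to 0.976. The values after 1 and 3 days are the lowest and the highest of its group means, from 1 to 6 reads per library after 1 day and 6 to 21 after 3 days. Trpv2 passed the filter among days 1 to 5, where it was not called (adjusted p = 0.0664), and 5 days against 1 day gave 1.31 (SE 0.58, adjusted p = 0.114).

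Trpv4, a cation channel opened by swelling, lipids and warmth, had 0 to 13 reads per library and passed the filter in no comparison. Its group means lay between 0.70 and 1.44 CPM with overlapping ranges, and exact permutation tests against room temperature gave p-values of 0.198 to 0.96. A change in Trpv4 was not detectable at this depth.

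**Figure D3:**
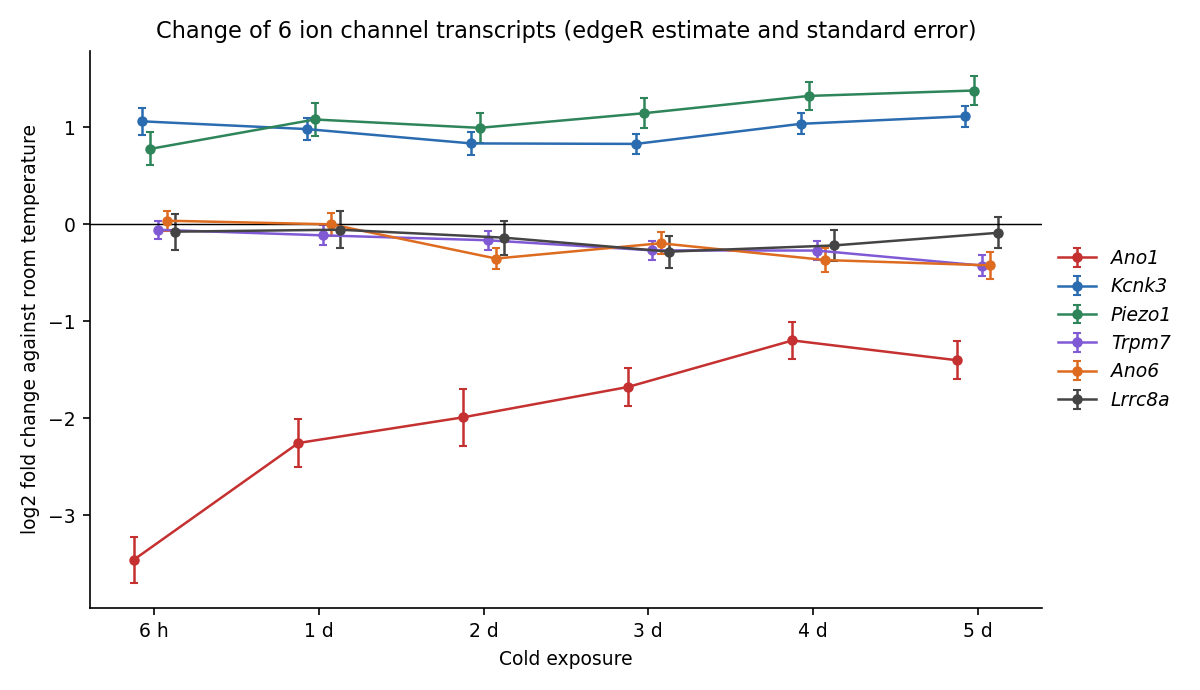
Log2 fold change against the 5 room temperature mice (vertical axis) after each duration of cold (horizontal axis) for the 6 genes that passed the filter on low counts, with edgeR standard errors as whiskers and small horizontal offsets for legibility. Kcnk3 and Piezo1 lay above 0 at every duration, Ano1 went from -3.46 after 6 hours to -1.40 after 5 days, and Trpm7, Ano6 and Lrrc8a stayed between -0.43 and 0.04.

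Of the 7 members other than Ano1, 5 passed the filter against room temperature at each duration. After 1 day 2 of them were called, both higher, where 18.9% of all genes were called higher and 17.8% lower. After 2 days 3 were called (16.4% of all genes higher and 14.7% lower), and after 3 days 3 (18.3% and 15.5%). After 4 days 4 were called (19.4% and 18.6%), as after 5 days (20.2% and 18.6%). Of these 4, Kcnk3 and Piezo1 were higher and Trpm7 and Ano6 lower. With scaling by library size alone, the median log2 fold change of all genes moved to between -0.25 and -0.15, and 931 to 1440 genes were called higher and 2430 to 3347 lower after 1 to 5 days, beside 1748 to 2167 and 1565 to 2056 with TMM. The changes given here are relative to that shift, and Trpm7 was also called lower after 1 day (adjusted p = 0.0283) and 2 days (adjusted p = 0.00835) on that scale. Of the 7 genes tested among days 1 to 5, 2 differed (Ano1 and Piezo1), beside 17.4% of all genes. After 5 days against 1 day Ano1 was higher and Ano6 and Trpm7 were lower, beside 10.1% of all genes called higher and 8.78% called lower.

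The rest of the channel genes came from 144 further genes of 9 families, of which 44 to 47 passed the filter against room temperature. After 1 day 13 of 45 were called higher and 7 lower, after 2 days 7 and 6 of 44, after 3 days 14 and 5 of 47, after 4 days 14 and 5 of 46, and after 5 days 15 and 6 of 45. Over all genes, 16.4% to 20.2% were called higher and 14.7% to 18.6% lower at these durations, the smallest shares after 2 days. The median log2 fold change of the channel genes lay between 0.13 and 0.18, beside -0.02 to -0.01 over all genes. Among days 1 to 5, 9 of 52 differed, a share close to the 17.4% of all genes.

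The partners of Lrrc8a in the volume-regulated anion channel were all higher where they passed the filter. Lrrc8b went from 2.31 ± 0.77 CPM (SD, n = 5) in the controls to 8.58 ± 1.69 CPM after 1 day (log2 fold change 1.84, SE 0.25, adjusted p = 2.8e-05) and was called higher at every duration from 1 day on. Lrrc8d went from 18.6 ± 5.09 to 44.4 ± 6.18 CPM after 1 day (1.23, SE 0.17, adjusted p = 2.7e-05) and was at 34.5 ± 4.45 CPM after 5 days. Lrrc8c, named after its values were seen, went from 7.74 ± 1.58 to 18.1 ± 3.66 CPM after 1 day (1.21, SE 0.18) and to 11.7 ± 2.94 CPM after 5 days (0.58, SE 0.20, adjusted p = 0.0313). Lrrc8c was lower after 5 days than after 1 day (-0.63, SE 0.19, adjusted p = 0.0192), though the F-test among the 5 durations did not call it (adjusted p = 0.096). The difference between these subunits and Lrrc8a was not tested.

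Other anoctamins and stretch-gated channels were called too. Ano10, named after its values were seen, was at 20.8 ± 2.59 CPM in the controls, 13.4 ± 4.48 CPM after 6 hours and 21.7 ± 3.73 CPM after 1 day. After 5 days it was at 30.8 ± 3.49 CPM (log2 fold change against room temperature 0.55, SE 0.13, adjusted p = 0.00212). Tmem63b, an osmotically gated cation channel, rose from 24.6 ± 3.75 to 46.1 ± 2.53 CPM after 5 days (0.88, SE 0.12, adjusted p = 1.2e-05) and was called higher from 1 day on. Of 5 stretch-gated channels tested after 1 day and after 3 days, Piezo1 included, 2 were called higher and 1 lower. After 2, 4 and 5 days, 2 of 4 were called, each higher. Over all genes, 16.4% to 20.2% were called higher and 14.7% to 18.6% lower at these durations. Of the TRP channels that are not members, Pkd2l2 was called lower after 1, 2 and 5 days and Trpc1 higher after 3 days, both named after their values were seen.

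The calcium release channel Itpr2 was also called, and the pacemaker channel Hcn2 was higher where it passed the filter on low counts. Itpr2, an inositol trisphosphate receptor that releases stored calcium, was at 391 to 564 CPM in the controls, 145 to 211 CPM after 6 hours and 235 to 327 CPM after 5 days (log2 fold change -0.82), and was called lower from 1 day on. Ryr2, the ryanodine receptor that releases stored calcium, rose from 1.71 ± 0.784 to 4.55 ± 1.73 CPM after 5 days (1.37, SE 0.36). Ryr2 did not pass the filter after 6 hours, so it entered the later tests with the reads of the cold mice. Its rise is therefore given as a description. Hcn2, a pacemaker channel opened by hyperpolarization and cyclic AMP, was at 0.185 ± 0.179 CPM in the controls, which is about 1 read per library, and at 7.15 ± 2.38 CPM after 3 days. Hcn2 did not pass the filter after 6 hours or 1 day. From 2 days on it passed only through the reads of the cold mice, so its rise is a description and gives no onset. Its fitted fold changes of 3.95 to 5.06 (log2) depend on the prior count at such levels.

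Potassium and sodium channel genes were called in both directions. Kcnj11, the pore of the ATP-sensitive potassium channel, rose from 2.68 ± 0.986 to 7.06 ± 1.24 CPM after 5 days (1.35). Scn4b, an auxiliary sodium channel subunit, rose from 1.47 ± 1.16 to 4.69 ± 2.04 CPM (1.66). Scn4b passed the filter on low counts with the reads of the cold mice, so this rise is a description and not a call. Scn7a, a sodium channel known from glia, fell from 23.3 ± 2.76 to 11.4 ± 2.8 CPM (-1.06). The 7 Schwann cell markers summed to 35.6 to 69.6 CPM in the controls and 51.4 to 60.5 CPM after 5 days, and their part in the Scn7a values was not tested. Clcn6, a late endosomal chloride-proton exchanger, rose from 2.26 ± 0.808 to 4.27 ± 1.21 CPM (0.89).

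**Figure D4:**
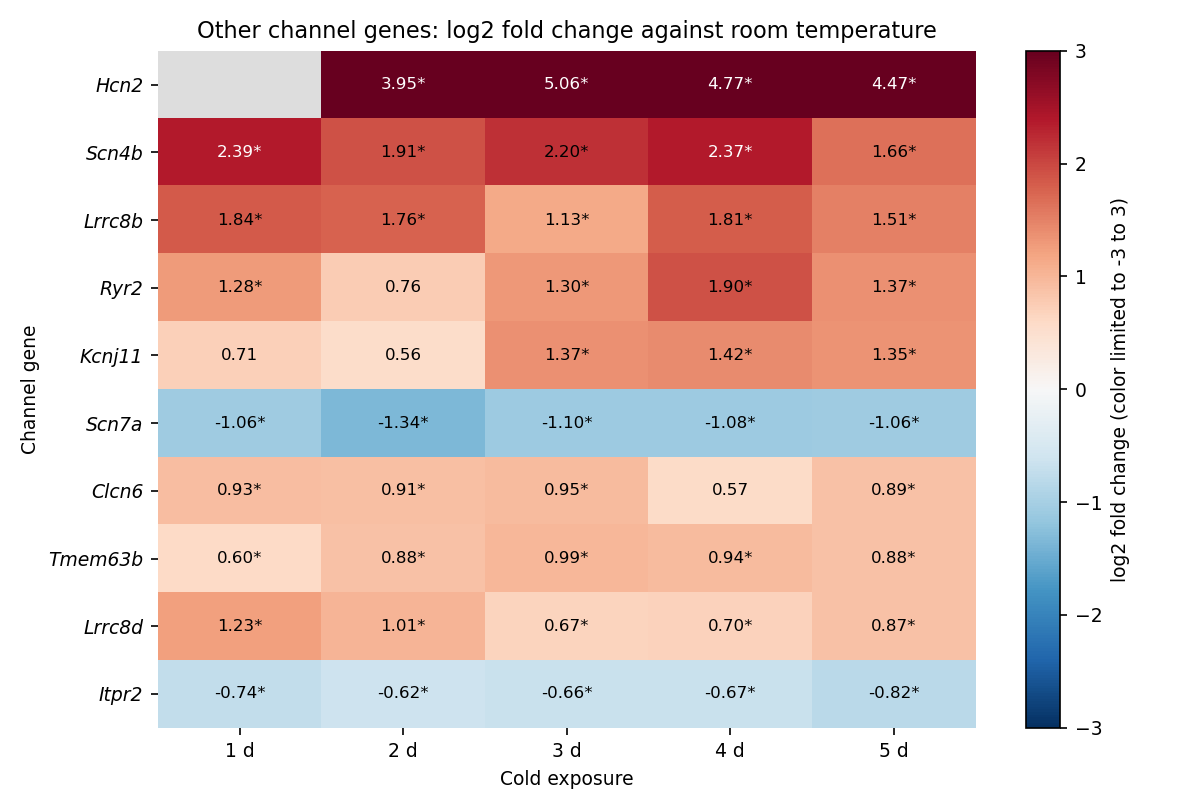
Log2 fold change against room temperature after 1 to 5 days of cold (columns) for 10 other channel genes named by the rule (rows), printed in each cell and shown by color, with an asterisk where the adjusted p was under 0.05. A gray cell did not pass the filter on low counts. Hcn2, Scn4b and Ryr2 passed it with the reads of the cold mice, so their rows are descriptions and their asterisks are not read as tests. Scn7a and Itpr2 were lower and the other 8 genes higher after 5 days.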

How the data were processed

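RNA from iBAT of 35 mice was sequenced with the QuantSeq 3′ mRNA-Seq FWD kit. According to the submitters' processing notes and the study's methods, reads were aligned with STAR 2.6.1d and counted with HTSeq 0.11.2 on GRCm38.98, and CASAVA 1.8.2 was used. The authors deposited these values as whole-number counts per gene without normalization. The strand setting of the counting is not given in the sources used here, so overlapping genes on opposite strands may share reads. Symbols were matched for 55154 of 55421 identifiers.

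The members and gene lists were chosen with earlier results of these data known. Each duration was compared with room temperature in edgeR 4.0.16 (R 4.3.3; filterByExpr, TMM, quasi-likelihood test, adjusted p under 0.05), and days 1 to 5 were fitted together (25 mice). Contrasts that chose Ano1 were described without a test. log2 CPM used a prior count of 2. Exact two-sided permutation tests used all 252 splits. Named channel genes were the 12 with the largest change after 5 days among 19 called in at least 3 of 5 comparisons, of which 2 are not reported here. Alternatives were RLE size factors, library size, no filter, DESeq2 1.42.0, all groups in 1 fit, the replicate number as a block, and fits without each mouse. GENCODE M21 gave coordinates. Depth sets the precision: 1 CPM after TMM corresponds to about 3.5 to 6.6 reads.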

Additional observations from a re-analysis of the deposited data

Results flagged for a closer look

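Of 56 groups of 5 mice examined (8 genes in 7 groups), 2 held a mouse far from the other 4, and chance marks about 1 group in 20. For Ano6 after 2 days the lowest mouse had 19.4 CPM, while the other 4 had 21.3 to 21.9 CPM. For Trpv2 after 6 hours the highest mouse had 2.35 CPM, from 9 reads, while the other 4 had 0.236 to 0.697 CPM.

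The level after 5 days differed from that after 1 day for 3 of the 7 genes tested, by the edgeR test of that difference. Over all genes, 10.1% were called higher and 8.78% lower. Of 25 fits without a mouse, 5 lost the call for Ano1, 3 for Trpm7 and 3 for Ano6. Ano1 was higher after 5 days by 0.85 on the log2 scale, with all 5 mice above those after 1 day. How many of all genes separate in this way was not determined. Trpm7 changed by -0.31 and Ano6 by -0.42, with overlapping ranges in both.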

How the results depend on the processing

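Of 1539 values recomputed under another setting, 1395 kept their direction and side of the threshold or stayed within the stated limits. The cause of the others was not tested. Library depth limits Trpv2 and Trpv4 most.

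Members called after 4 days numbered 2 without the filter on low counts and 2 with DESeq2 (2 to 4 without a mouse). Among days 1 to 5, 1 member was called under library size only, without the filter and with the replicate block (0 to 3 without a mouse). After 5 days against 1 day, 1 was called without the filter (1 to 4 without a mouse). For Ano1 the F-test among days had adjusted p-values of 0.00788 to 0.0727 without a mouse and 0.0556 with the replicate block, and 5 days against 1 day gave 0.67 to 0.98 without a mouse and 0.84 with the block (adjusted p = 0.0532).

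Values near 0 changed sign. Ano6 after 1 day was 0.0045 with RLE factors, 0.0197 without the filter, 0.0006 with all groups in 1 fit, 0.0209 with DESeq2, 0.0093 as a difference of log2 CPM, and -0.042 to 0.0869 without a mouse. Lrrc8a after 1 day was -0.1693 to 0.0755 without a mouse. Lrrc8a after 5 days against 1 day was 0.0108 in log2 CPM and -0.1548 to 0.0584 without a mouse.

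Same-numbered mice did not deviate together (105 pairs, r -0.293 to 0.331, median -0.006, 28 of 210 correlating best with their own number), so the replicate block pairs numbers only.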
